A study of Mus musculus with 6 samples.

Results

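The subject is a group of 10 genes that encode the ligands and receptors through which the somatic cells of the testis and its spermatogonia signal to each other. They were chosen by name from the 54232 genes of the count table and comprise 6 ligands (*Gdnf*, *Kitl*, *Cxcl12*, *Fgf2*, *Fgf9* and *Csf1*) and 4 receptors or co-receptors (*Gfra1*, *Ret*, *Kit* and *Cxcr4*). RNA of whole testes from B6D2F1 mice at postnatal day 12 was sequenced in 2 groups of 3 libraries. The labels give 1 group as *Dis3l2* WT, referred to as the control, and the other as *Dis3l2* KO, referred to as KO-labelled. In the study's account, the mutant is *Stra8-Cre*; *Dis3l2* F/-, a germline null allele over a floxed allele, and the controls are littermates whose exact alleles the sample labels do not give. Cre under the *Stra8* promoter starts at P3 in a part of the spermatogonia, so germ cells before that stage and all somatic cells of the mutant keep the floxed allele beside the null one. The comparison asks which genes are expressed differently in the mutant testis.

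GDNF from Sertoli and peritubular cells binds the co-receptor GFRA1 and the receptor tyrosine kinase RET on undifferentiated spermatogonia and maintains their self-renewal. KIT ligand from Sertoli cells binds the receptor tyrosine kinase KIT, which spermatogonia acquire as they differentiate and which Leydig cells also carry. CXCL12 and its receptor CXCR4 retain spermatogonia in the niche, the fibroblast growth factors FGF2 and FGF9 act on spermatogonia and on Sertoli cells, and CSF1 acts through its receptor on macrophages and on a subset of spermatogonia.

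Library totals ran from 33325483 to 44956193 counts. *Dis3l2* measured 25.8, 23.5 and 23.0 CPM (counts of a gene per 1000000 counts of the library, scaled by TMM) across the control libraries against 31.6, 25.4 and 27.5 CPM across the KO-labelled libraries. That is a log2 fold change of 0.22 (SE 0.11, edgeR adjusted p = 0.136), and a count over all exons does not resolve the deleted part. *Dis3*, the gene that the study's design sentence names instead, had 139 ± 7.93 CPM in controls and 63.8 ± 4.55 CPM in the KO-labelled libraries (SD, n = 3 each), with a log2 fold change of -1.13. The median log2 fold change of 8 pan-germ markers was -1.13 as well. These counts by themselves do not show the deletion, which the study assessed by other assays that are not analysed here. Markers of germ cells and somatic cells were present in all libraries, but in different amounts. The summed CPM of 16 genes of meiotic prophase ran from 1559 to 1936 among the controls and from 442 to 582 among the KO-labelled libraries, with 16 of 16 lower, while that of 18 Sertoli genes was 9301 to 9724 and 14630 to 15702, with 17 of 18 higher. In bulk RNA, fewer cells of a type and less RNA per cell cannot be told apart, and a loss of RNA from 1 cell type raises the share of all others.

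Scaled by TMM, 6 of the 10 genes were higher in the KO-labelled libraries and 0 were lower. The ligands *Gdnf*, *Kitl*, *Cxcl12* and *Csf1* and the receptor components *Gfra1* and *Ret* rose, whereas *Kit*, *Cxcr4*, *Fgf2* and *Fgf9* did not pass the test. Among all 20327 genes tested, 16.2% were called higher and 16.5% lower (edgeR quasi-likelihood test, Benjamini-Hochberg adjusted p under 0.05), and DESeq2 gave 17.7% and 16.6%, so a call by itself was common. The median log2 fold change was 0.63 for the 6 ligands and 0.25 for the 4 receptors, beside -0.02 for all genes tested. For 8 of the 10 genes the libraries of one group lay entirely to one side of the other, as they did for 45.5% of all genes tested. All 10 genes passed the filter on low counts. When TMM factors were taken from somatic cell markers only (the somatic factors), *Gdnf* and *Kitl* were still higher, *Kit* and *Cxcr4* were lower, and the other 6 did not pass the test. With these factors 1.39% of all genes tested were called higher and 49.0% lower, with a median log2 fold change of -0.52, so a call of lower was common. *Kit* (-0.64) and *Cxcr4* (-0.57) lay near that median. The labels do not say whether libraries of 1 group came from separate animals, though the study calls them biological replicates, so p-values measure the spread between these libraries.

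**Figure D1:**
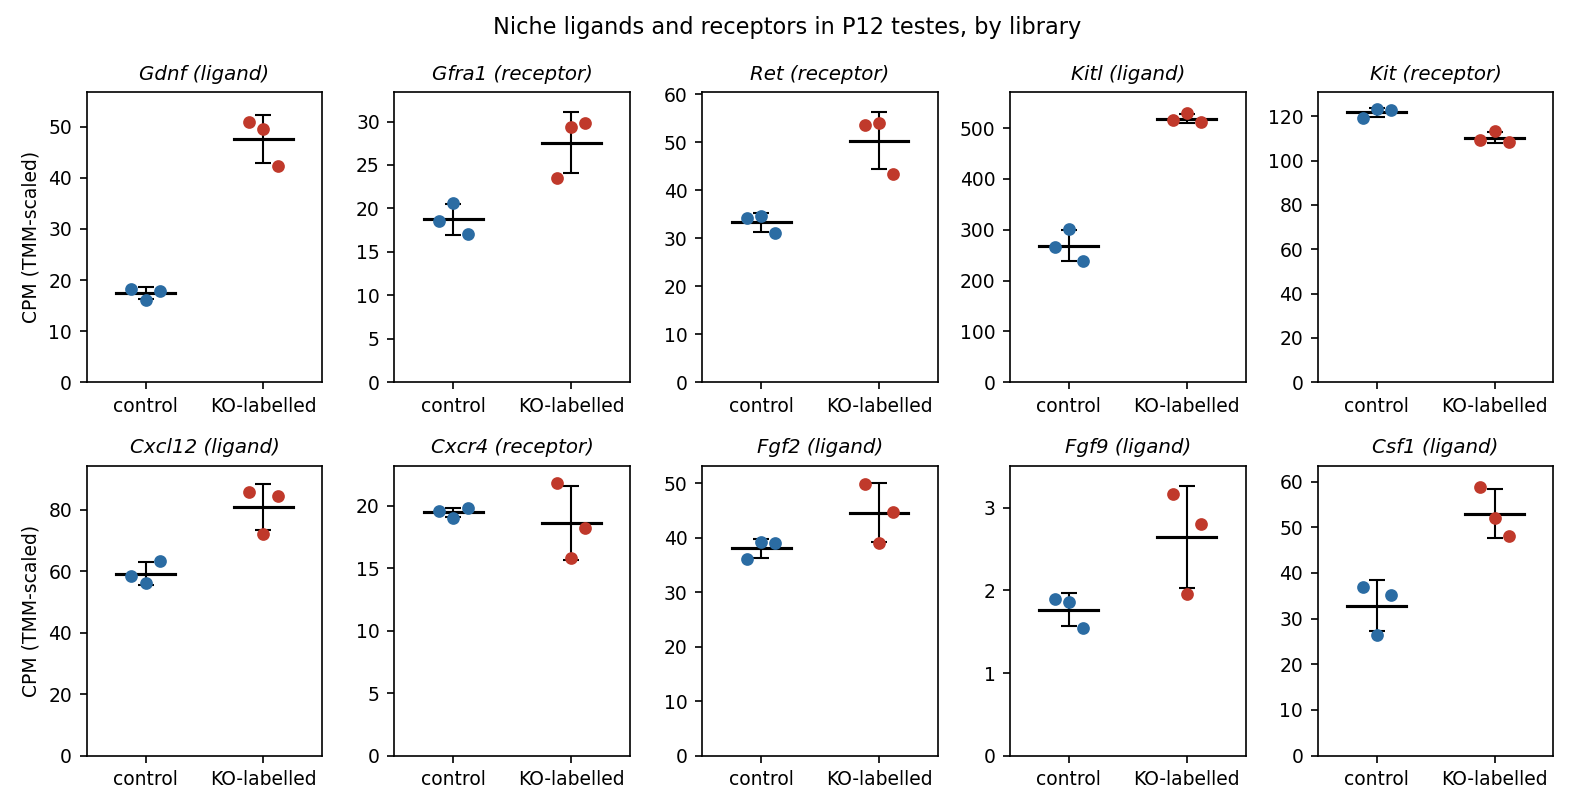
CPM (scaled by TMM, linear axes that start at 0) of the 10 genes in the 3 control (blue) and 3 KO-labelled (red) libraries. Points are libraries, horizontal bars are means and error bars are SD. The KO-labelled libraries lie above all control libraries for Gdnf (42.3 to 51.0 against 16.1 to 18.2 CPM) and Kitl (511 to 529 against 239 to 301 CPM), and the groups overlap for Cxcr4 and Fgf2.

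*Gdnf* had the largest fold change of the 10 genes. *Gdnf* (ENSMUSG00000022144.4, chromosome 15, 7810846 to 7837575 on GRCm38), the self-renewal factor of spermatogonial stem cells, measured 18.2, 16.1 and 17.9 CPM across the control libraries against 51.0, 49.6 and 42.3 CPM across the KO-labelled libraries. Each KO-labelled library was far above the highest control library, and the counts behind these values were 632 to 788 and 1616 to 2126. The rise was 2.74-fold (95% interval 2.34 to 3.21), a log2 fold change of 1.45 (SE 0.11, edgeR adjusted p = 2.3e-07). Of all genes tested, 158 (0.78%) had a larger log2 fold change than *Gdnf*. With the factors from somatic markers its log2 fold change was 0.95 (edgeR adjusted p = 7.26e-07).

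The promoter windows of *Gdnf* and *Gfra1*, ligand and co-receptor, are shown because both genes rose and the windows differ in their core letters. They run from 250 bases before to 50 after a RefSeq start on GRCm38.p6, 5′ to 3′ on the strand of the gene, at chr15:7809798-7810097 on the plus strand for the first of 2 *Gdnf* starts and at chr19:58455349-58455648 on the minus strand for *Gfra1*. Capitals mark TATAAA in *Gdnf* and CAGCTG in *Gfra1*.
Gdnf: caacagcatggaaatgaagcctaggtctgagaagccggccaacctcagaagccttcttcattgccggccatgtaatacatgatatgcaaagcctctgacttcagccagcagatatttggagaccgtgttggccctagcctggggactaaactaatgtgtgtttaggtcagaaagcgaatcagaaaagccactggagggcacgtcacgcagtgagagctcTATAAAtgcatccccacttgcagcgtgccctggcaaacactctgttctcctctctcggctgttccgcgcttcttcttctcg
Gfra1: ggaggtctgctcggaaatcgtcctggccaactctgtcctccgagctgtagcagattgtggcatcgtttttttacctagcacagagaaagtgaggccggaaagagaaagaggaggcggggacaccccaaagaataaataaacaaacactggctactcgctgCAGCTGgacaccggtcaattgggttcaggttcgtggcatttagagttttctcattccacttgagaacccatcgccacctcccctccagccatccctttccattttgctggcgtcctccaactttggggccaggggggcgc
TATAAA began 31 bases before this start of *Gdnf* and was in neither the second *Gdnf* window nor that of *Gfra1*. The printed *Gdnf* window ends at 7810097, before the gene as counted begins at 7810846. The second window, at 7813477 to 7813776, lies inside the counted gene. CAGCTG, a form of the E-box, began 90 bases before the start of *Gfra1*. Searched on both strands, TATAAA was in 13.6% and CAGCTG in 16.3% of 32851 such windows, so neither is rare, and a match is not a shown binding site.

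*Gfra1* and *Ret*, which together form the GDNF receptor, rose with TMM by less than their ligand gene, with intervals that do not reach that of *Gdnf*. *Gfra1* (ENSMUSG00000025089.15, chromosome 19, 58235604 to 58455909) measured 18.5, 20.7 and 17 CPM across the control libraries against 23.5, 29.4 and 29.8 CPM across the KO-labelled libraries. The groups did not overlap, although KO-labelled replicate 1 lay close to the control range. This was a log2 fold change of 0.56 (SE 0.12, 95% interval 0.30 to 0.82, edgeR adjusted p = 0.00276). *Ret* (ENSMUSG00000030110.13, chromosome 6, 118151745 to 118197718), the signalling subunit, had 34.2, 34.6 and 31.1 CPM and then 53.7, 53.9 and 43.5 CPM, a log2 fold change of 0.60 (SE 0.10, 95% interval 0.38 to 0.82, edgeR adjusted p = 4.64e-04). All 3 KO-labelled libraries were above the control range, with replicate 3 the lowest, as it also was for *Gdnf*. With the somatic factors the log2 fold changes were 0.06 for *Gfra1* and 0.09 for *Ret*, and neither passed (edgeR adjusted p = 0.756 and 0.594).

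Markers of the cells that carry this receptor moved as well. Of 16 genes of undifferentiated spermatogonia, 8 were higher and 0 lower with TMM and 3 and 3 with the somatic factors. Over all genes tested, 16.2% were higher and 16.5% lower with TMM, and 1.39% and 49.0% with the somatic factors. The summed level of the 16 genes was 433 to 463 CPM in controls and 472 to 586 CPM in the KO-labelled libraries. By contrast, 6 of 8 pan-germ genes were lower with TMM (1539 to 1768 CPM and 556 to 749 CPM). No marker of either list was at 0 in all libraries. Per 1000 counts of the 16 undifferentiated markers, *Gfra1* had 41.6 ± 3.65 counts in controls and 52.2 ± 3.31 in the KO-labelled libraries (SD, n = 3 each) without overlap, and *Ret* had 74.1 ± 5.24 and 96.9 ± 20.4 with overlap. *Cxcr4*, set against the same markers, went the other way, with 43.3 ± 2.10 and 35.8 ± 8.98 counts (SD, n = 3 each) and overlap. *Foxo1* alone made 33.4% to 43.0% of that marker sum, and the part of cell composition in the rise of *Gfra1* and *Ret* was not tested further.

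*Kitl* rose, and its receptor gene *Kit* did not pass the test with TMM. *Kitl* (ENSMUSG00000019966.18, chromosome 10, 100015630 to 100100416), which encodes stem cell factor, measured 267, 301 and 239 CPM across the control libraries against 515, 529 and 511 CPM across the KO-labelled libraries. The KO-labelled libraries were close to each other (519 ± 9.30 CPM, SD, n = 3) and all above the control libraries (269 ± 31.4 CPM, SD, n = 3). The rise was 1.93-fold (95% interval 1.69 to 2.20), a log2 fold change of 0.95 (SE 0.09, edgeR adjusted p = 2.72e-06), and 2.66% of all genes tested had a larger one. With the somatic factors it was 0.44 (edgeR adjusted p = 0.00834).

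*Kit* (ENSMUSG00000005672.12, chromosome 5, 75574916 to 75656722), the marker of differentiating spermatogonia, measured 119, 123 and 123 CPM across the control libraries against 109, 113 and 108 CPM across the KO-labelled libraries. The groups did not overlap, but the difference was small and did not pass the test, with a log2 fold change of -0.14 (SE 0.07, 95% interval -0.30 to 0.01, edgeR adjusted p = 0.152). With the somatic factors *Kit* was lower by -0.64 on the log2 scale (edgeR adjusted p = 9.09e-05), where the median of all genes was -0.52. Of 10 other genes used as markers of differentiating spermatogonia, 6 were lower and 2 higher, with a median log2 fold change of -0.74. Their summed level was 983 to 1061 CPM in controls and 624 to 777 CPM in the KO-labelled libraries. Not all are specific to differentiating cells, since *Nanos3* is also in the list of undifferentiated spermatogonia. Per 1000 counts of these 10 markers *Kit* had 120.0 ± 3.88 counts in controls and 156 ± 17.8 in the KO-labelled libraries (SD, n = 3 each), 1.30 times as many, without overlap. *Ccnd2* made 16.9% to 43.3% of that sum, and *Stra8*, also in it, fell from 151 ± 9.75 to 33.4 ± 10.2 CPM (SD, n = 3 each). The sum itself fell, so this higher ratio does not mean that *Kit* rose. Leydig cells also express *Kit*, and 6 of 9 Leydig genes were higher and 0 lower (610 to 689 CPM and 909 to 916 CPM). How the 2 sources add up in the *Kit* count was not tested.

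The promoter windows of *Kitl* and *Kit* are shown as a ligand and receptor pair whose members moved differently. They lie at chr10:100015571-100015870 on the plus strand for *Kitl* and at chr5:75574737-75575036 on the plus strand for the first of 2 *Kit* starts, cut in the same way from RefSeq on GRCm38.p6. Capitals mark TATAAA and GGGCGG, a GC box, or its reverse complement.
Kitl: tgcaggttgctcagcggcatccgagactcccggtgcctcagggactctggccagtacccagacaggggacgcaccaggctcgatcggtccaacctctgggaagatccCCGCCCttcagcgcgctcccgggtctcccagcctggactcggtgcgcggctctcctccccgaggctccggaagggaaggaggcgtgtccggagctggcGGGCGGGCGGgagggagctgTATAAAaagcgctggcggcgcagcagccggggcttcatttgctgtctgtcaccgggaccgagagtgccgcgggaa
Kit: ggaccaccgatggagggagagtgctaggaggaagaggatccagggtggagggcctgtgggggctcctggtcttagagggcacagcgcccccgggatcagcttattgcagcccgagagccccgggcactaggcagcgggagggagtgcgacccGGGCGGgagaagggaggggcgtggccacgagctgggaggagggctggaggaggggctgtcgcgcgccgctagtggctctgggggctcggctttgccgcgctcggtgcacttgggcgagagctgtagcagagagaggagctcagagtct
In *Kitl*, TATAAA began 25 bases before the start and GGGCGG occurred 3 times, with 2 of the matches overlapping. *Kit* held GGGCGG once, 98 bases before the start, and no TATAAA. The GC box was in 35.7% of all windows, searched on both strands. Another motif, the cAMP response element TGACGTCA, was in 1.79% of all windows and in none of the 11 windows of the 9 genes that matched the RefSeq table, which were all but *Ret*.

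*Cxcl12* rose modestly, and *Cxcr4* did not move beyond the spread of its libraries. *Cxcl12* (ENSMUSG00000061353.11, chromosome 6, 117168535 to 117181367), a chemokine of somatic cells, measured 58.3, 56.1 and 63.3 CPM across the control libraries against 85.7, 72.2 and 84.6 CPM across the KO-labelled libraries. The groups did not overlap, and the log2 fold change was 0.45 (SE 0.09, 95% interval 0.25 to 0.64, edgeR adjusted p = 0.00163). Its sign depended on the scaling, since the somatic factors gave -0.05 (edgeR adjusted p = 0.766). *Cxcr4* (ENSMUSG00000045382.6, chromosome 1, 128588199 to 128592293), the G protein-coupled receptor of CXCL12, measured 19.6, 19.0 and 19.8 CPM across the control libraries against 21.8, 15.9 and 18.2 CPM across the KO-labelled libraries. The KO-labelled libraries fell on both sides of the control range, and the log2 fold change was -0.07 (SE 0.13, 95% interval -0.34 to 0.21, edgeR adjusted p = 0.735). Without KO-labelled replicate 2, the lowest library, it was 0.05 (edgeR adjusted p = 0.837). With the somatic factors it was -0.57 (edgeR adjusted p = 0.00175), where the median of all genes was -0.52.

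Neither FGF ligand passed the test. *Fgf2* (ENSMUSG00000037225.13, chromosome 3, 37348346 to 37410108), a growth factor used to culture spermatogonial stem cells, measured 36.1, 39.2 and 39.0 CPM across the control libraries against 49.9, 39.1 and 44.8 CPM across the KO-labelled libraries. KO-labelled replicate 2 lay inside the control range, and the log2 fold change was 0.23 (SE 0.10, 95% interval 0.01 to 0.44, edgeR adjusted p = 0.104). Without that library it was 0.32 and passed (edgeR adjusted p = 0.0432), and with the somatic factors it was -0.28 (edgeR adjusted p = 0.0799). Exons of *Fgf2* overlap those of *Nudt6* on the opposite strand, which had 155 to 263 counts per library, and the counting used the strand.

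*Fgf9* (ENSMUSG00000021974.15, chromosome 14, 58070547 to 58112720), known for its role in testis determination in the embryo, was the least abundant of the 10 genes. It had 66, 79 and 68 counts in the control libraries and 115, 84 and 107 in the KO-labelled libraries, which are 1.90, 1.86 and 1.54 CPM and 3.16, 1.96 and 2.80 CPM. The groups did not overlap, but KO-labelled replicate 2 was just above the highest control library. The log2 fold change of 0.58 had an SE of 0.27 and a 95% interval of 0.01 to 1.15 (edgeR adjusted p = 0.113), which includes the values of *Gfra1* and *Ret*, and did not pass the test.

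*Csf1* rose together with the gene of its receptor when scaled by TMM. These were the 2 genes called, both higher, among 5 tested CSF ligands and receptors, beside 16.2% called higher among all genes tested. *Csf1* (ENSMUSG00000014599.10, chromosome 3, 107741048 to 107760469), the macrophage colony-stimulating factor, measured 36.9, 26.4 and 35.3 CPM across the control libraries against 58.9, 52.0 and 48.2 CPM across the KO-labelled libraries. All KO-labelled libraries were above the control range, and the log2 fold change was 0.69 (SE 0.12, 95% interval 0.43 to 0.95, edgeR adjusted p = 5.82e-04). *Csf1r*, the receptor on macrophages, had 27.6 ± 1.14 CPM in controls and 38.3 ± 5.04 CPM in the KO-labelled libraries (SD, n = 3 each), with a log2 fold change of 0.47 (SE 0.11, edgeR adjusted p = 0.0036). Of 11 macrophage markers, 6 were higher and 0 lower, with a summed level of 151 to 174 CPM and 205 to 300 CPM, and none at 0 in all libraries. Per 1000 counts of these markers *Csf1* had 202 ± 23.6 counts in controls and 226 ± 26.6 in the KO-labelled libraries (SD, n = 3 each), with overlap. With the somatic factors *Csf1* had a log2 fold change of 0.19 (edgeR adjusted p = 0.246), and that of *Csf1r* turned to -0.04.

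**Figure D2:**
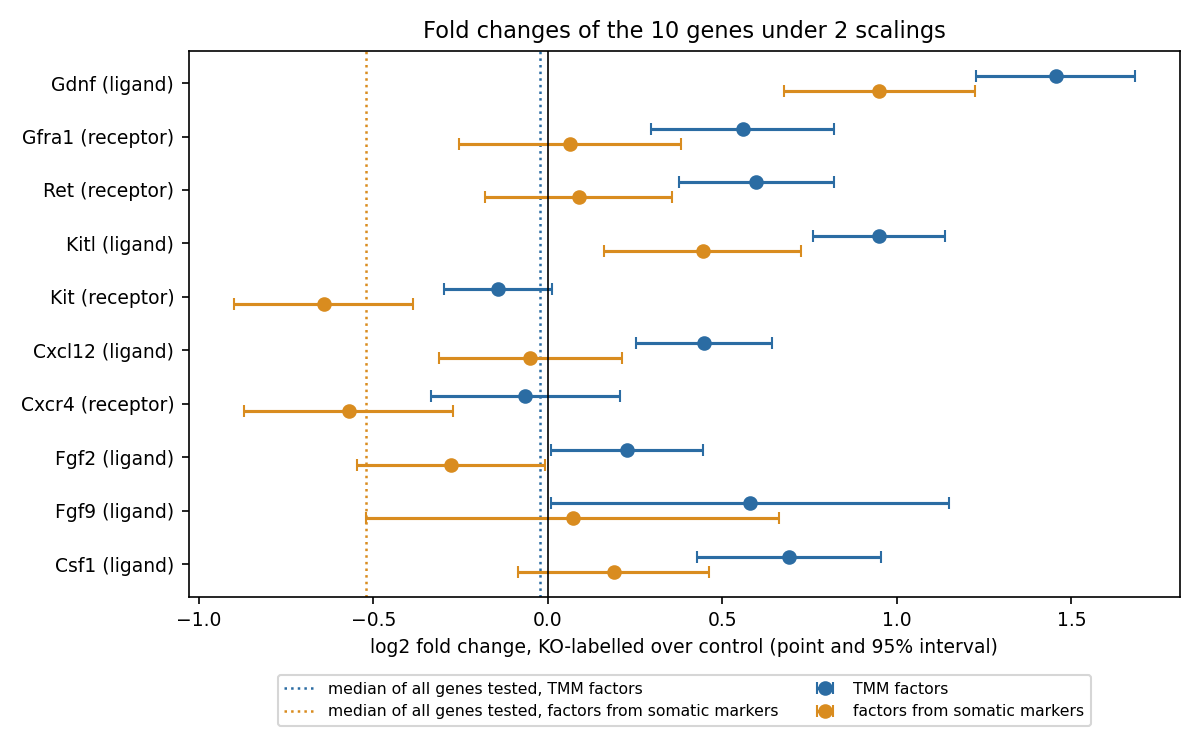
Log2 fold changes (KO-labelled over control, points) with 95% intervals (bars) of the 10 genes under TMM factors (blue) and under factors from somatic cell markers (orange), with dotted lines at the median of all genes tested, -0.02 and -0.52. Gdnf and Kitl lie above 0 under both, whereas Cxcl12 and Fgf2 change sign.

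The scaling moved all 10 genes by nearly the same amount, as the somatic factors lowered the median log2 fold change of all genes from -0.02 to -0.52. Relative to that median, *Gdnf* stood at 1.48 with TMM and 1.47 with the somatic factors, *Kitl* at 0.97 with both, *Csf1* at 0.71 with both and *Kit* at -0.12 with both. The order of the 10 log2 fold changes was the same under TMM, RLE and the somatic factors. Only the signs of *Cxcl12* and *Fgf2* differed, positive with TMM and RLE and negative with the somatic factors. The size of every log2 fold change still depended on which RNA is taken as constant. Under the somatic factors 1.39% of all genes were called higher and 49.0% lower, and the log2 fold change of *Dis3l2* turned to -0.28.

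Sertoli cells are a main source of GDNF and KIT ligand, and 17 of their 18 markers were higher, too. Per 1000 counts of the 18 Sertoli markers, *Gdnf* had 1.96, 1.65 and 1.91 counts in the control libraries and 3.35, 3.16 and 2.89 in the KO-labelled libraries, 1.70 times as many on average. *Kitl* had 28.7, 31.0 and 25.5 counts and then 33.9, 33.7 and 35.0, 1.2 times as many. For both genes these ratios did not overlap between the groups. *Csf1* kept its ratio to the Sertoli markers at 1.002 with overlap, *Cxcl12* was at 0.85 with overlap, and *Fgf2* was at 0.73 with no overlap. These ratios, like those to the other marker lists, were chosen after the values were seen and have no test, and they rest on a sum of which *Clu* made 37.5% to 40.04%.

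**Figure D3:**
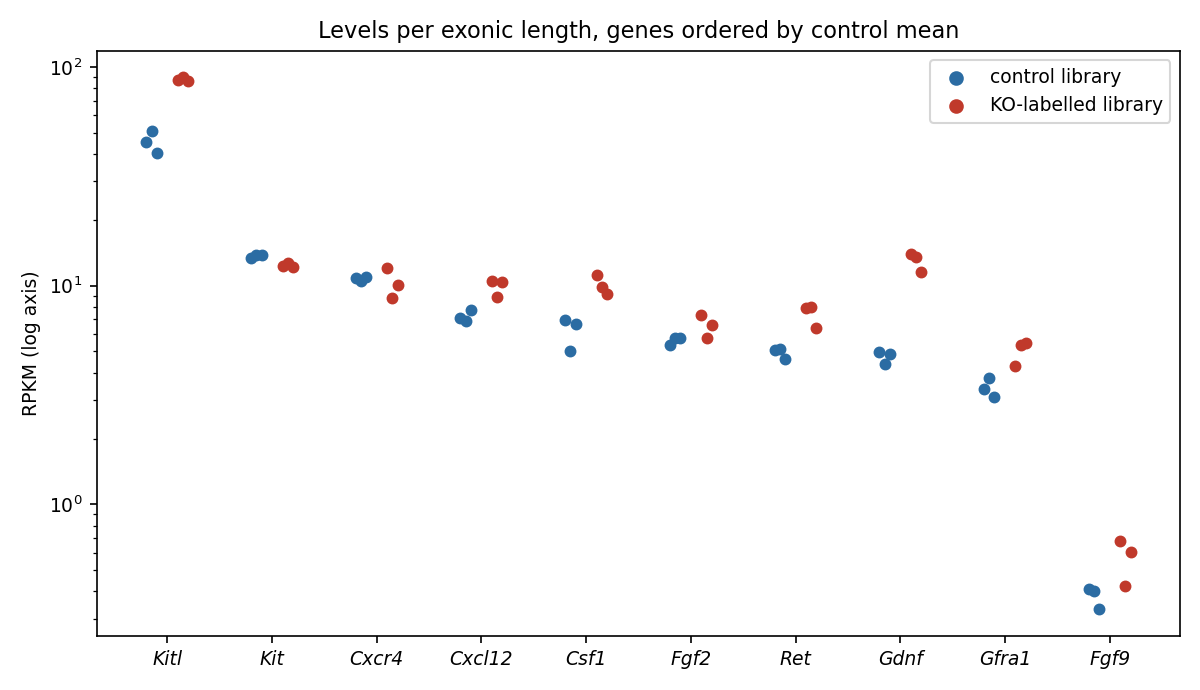
RPKM (CPM per 1000 bases of exonic length, log axis) of the 10 genes, ordered by their control mean, with 3 control (blue) and 3 KO-labelled (red) libraries each. Kitl is the most abundant and Fgf9 the least abundant in both groups, and Gdnf moves from the 8th to the 2nd place.

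Levels of different genes were compared per exonic length, as RPKM (CPM per 1000 bases of exons). *Kitl* was by far the most abundant of the 10 transcripts, with 45.5 ± 5.31 RPKM in the control and 87.7 ± 1.57 RPKM in the KO-labelled libraries (SD, n = 3 each). In the control it was followed by *Kit* at 13.7, *Cxcr4* at 10.8, *Cxcl12* at 7.25, *Csf1* at 6.22, *Fgf2* at 5.62, *Ret* at 4.92, *Gdnf* at 4.73, *Gfra1* at 3.42 and *Fgf9* at 0.380 RPKM. The neighbours *Cxcl12* and *Csf1*, *Csf1* and *Fgf2*, and *Ret* and *Gdnf* overlapped between libraries, so their order is not resolved. In the KO-labelled libraries *Gdnf* came second at 12.97 ± 1.27 RPKM (SD, n = 3) and overlapped *Kit* at 12.4, while *Cxcr4* at 10.3, *Csf1* at 10.04 and *Cxcl12* at 9.89 RPKM overlapped in turn. *Ret* at 7.45 and *Fgf2* at 6.58 also overlapped, and *Gfra1* at 5.03 and *Fgf9* at 0.568 RPKM remained the lowest.

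A ratio of 2 genes within a library does not depend on how libraries are scaled to each other. It does depend on cell composition where the 2 genes are expressed in different cells. With TMM the median log2 fold change was 0.69 for Sertoli and -1.13 for pan-germ markers. It was 0.50 for markers of undifferentiated and -0.74 for those of differentiating spermatogonia. The part of composition in these ratios was not tested, nor how often other pairs of genes separate the groups, and ratios that share a gene are not separate. In each of these receptor and ligand pairs, the ratio of receptor to ligand was below the whole control range in all 3 KO-labelled libraries. The RPKM ratio of *Gfra1* to *Gdnf* was 0.683, 0.862 and 0.638 in the control libraries and 0.309, 0.397 and 0.473 in the KO-labelled libraries, a log2 difference of -0.90. For *Ret* to *Gdnf* the ratio was 1.02, 1.17 and 0.943 and then 0.572, 0.590 and 0.558, a log2 difference of -0.86. The control libraries had about as much *Ret* as *Gdnf* per length and the KO-labelled libraries clearly less. *Kit* to *Kitl* went from 0.297, 0.271 and 0.341 to 0.140, 0.142 and 0.141, a log2 difference of -1.10, with nearly identical ratios in the KO-labelled libraries. *Cxcr4* to *Cxcl12* went from 1.52, 1.53 and 1.41 to 1.15, 0.993 and 0.973, a log2 difference of -0.52. Between pathways, *Kit* to *Gfra1* differed by -0.70 and *Kitl* to *Gdnf* by -0.50 on the log2 scale.

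**Figure D4:**
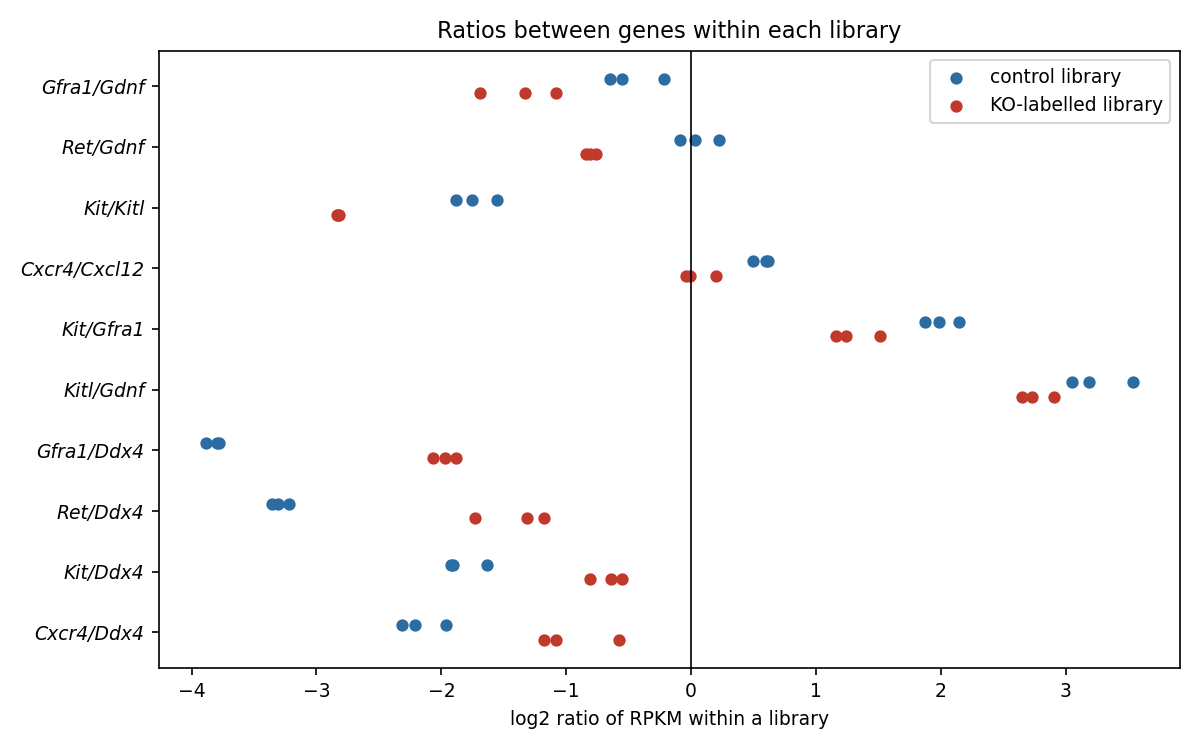
Log2 ratio of the RPKM of 2 genes within each library, for 10 ratios, with control libraries in blue and KO-labelled libraries in red. The groups do not overlap for any of the 10 ratios, with receptors lower relative to their ligands and higher relative to Ddx4 in the KO-labelled libraries.

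The receptor genes were also set against *Ddx4*, a single germ cell gene that itself fell. *Ddx4*, a helicase of all germ cells at this age, had 146 ± 15.1 CPM in controls and 59.4 ± 5.12 CPM in the KO-labelled libraries (SD, n = 3 each), with a log2 fold change of -1.30. Relative to *Ddx4*, the mean log2 ratio went from -3.82 to -1.97 for *Gfra1*, from -3.29 to -1.41 for *Ret*, from -1.82 to -0.67 for *Kit* and from -2.16 to -0.94 for *Cxcr4*. In folds, the mean difference was 3.60 for *Gfra1*, 3.69 for *Ret*, 2.22 for *Kit* and 2.33 for *Cxcr4*. *Kit* and *Cxcr4* had not passed the test with TMM, at log2 fold changes of -0.14 and -0.07, so their higher ratios come with the lower *Ddx4*. The control and KO-labelled libraries did not overlap for any of the 10 ratios. With 3 libraries per group the exact two-sided permutation test over 20 arrangements cannot go below p = 0.1, and each of the 10 ratios had p = 0.1 (adjusted 0.1), so no ratio could pass the threshold.

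Genes of the surrounding pathways were read from 11 lists. Without the 10 genes, 112 genes of these lists were tested, of which 44 were higher and 11 lower with TMM, with a median log2 fold change of 0.27. These are 39.3% and 9.82%, beside 16.2% and 16.5% of all genes tested. With the somatic factors 5 were higher and 39 lower, beside 1.39% and 49.0% of all genes, so the share called lower was below that of all genes. The direction of these counts hence rests on the scaling, and the values that follow are with TMM.

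With TMM, most but not all of the listed genes that respond to GDNF in spermatogonia were higher along with *Gdnf*, and 2 relatives of the ligand and its co-receptor were lower. In the list of GDNF ligands and receptor components, 3 of 9 tested genes were higher, all of them among the 10 genes, and 2 were lower. Of 10 GDNF-responsive genes, 7 were higher, 0 lower and 3 not called with TMM, with a median log2 fold change of 0.60. Among all genes tested, 16.2% were higher and 16.5% lower with TMM. With the somatic factors 0 were higher and 3 lower, beside 1.39% and 49.0% of all genes tested. This list shares genes, *Etv5* and *Lhx1* among them, with the markers of undifferentiated spermatogonia, so the counts of the lists are not separate. *Etv5*, a transcription factor needed for stem cell maintenance, had 38.9 ± 0.625 CPM in controls and 64.0 ± 7.64 CPM in the KO-labelled libraries (SD, n = 3 each), with a log2 fold change of 0.72 (edgeR adjusted p = 5.85e-05). *Egr2* (0.83) and *Lhx1* (1.02) were also higher (edgeR adjusted p = 1.13e-04 and 0.00189). The related ligand gene *Nrtn* (-0.72, edgeR adjusted p = 0.0122) and the related co-receptor gene *Gfra2* (-0.57, edgeR adjusted p = 0.0123) were lower, but *Nrtn* lost its call without control replicate 3 or KO-labelled replicate 2 (edgeR adjusted p up to 0.0617), and *Gfra2* without control replicate 2 or KO-labelled replicate 2 (up to 0.108). *Artn* (-0.51), *Gfra3* (-0.52) and *Gfra4* (-0.30) did not pass, and *Pspn* had no count. Among 12 adaptors and kinases of RET, 3 were higher and 1 lower with TMM and 0 and 5 with the somatic factors. *Fyn* (0.52) and *Yes1* (-0.37), both kinases of the Src family, went opposite ways (edgeR adjusted p = 1.08e-04 and 0.00482). *Src* (0.45) lost its call without control replicate 1, control replicate 2 or KO-labelled replicate 2 (edgeR adjusted p up to 0.0924), and *Shc1* (0.36) without control replicate 1 or KO-labelled replicate 2 (up to 0.0836).

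Of 20 regulators and signalling genes of KIT, 9 were higher and 1 lower with TMM and 0 and 9 with the somatic factors. The shares over all genes tested were 16.2% and 16.5% with TMM and 1.39% and 49.0% with the somatic factors. *Sohlh2*, a transcription factor that promotes *Kit* expression, was the 1 that fell, from 30.1 ± 1.84 CPM in controls to 16.8 ± 3.43 CPM in the KO-labelled libraries (SD, n = 3 each), with a log2 fold change of -0.84 (edgeR adjusted p = 2.41e-04). *Stat5b* (0.59), *Foxo3* (0.58) and *Sos1* (0.52), which act in cytokine, PI3K and RAS signalling, were higher (edgeR adjusted p = 4.67e-05, 8.57e-05 and 3.18e-04). In the CXCL12 pathway, 2 of 13 genes were higher and 2 lower with TMM and 0 and 7 with the somatic factors. The TMM shares, 15.4% in each direction, were near those of all genes tested, so the list does not stand out. *Cxcl12* itself was among those higher with TMM, and *Ackr3*, the second receptor of CXCL12, had a log2 fold change of 0.07 (edgeR adjusted p = 0.753). *Grk2*, a kinase that desensitizes chemokine receptors, was lower (-0.48, edgeR adjusted p = 0.00163), whereas *Arrb2* (-0.30) lost its call when any 1 of the controls or KO-labelled replicate 2 was left out (edgeR adjusted p up to 0.111). *Gnai2* (0.24) lost it without control replicate 1 or 3 or KO-labelled replicate 1 or 2 (up to 0.198).

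Of 22 genes of the FGF family, 12 passed the filter on low counts. Of these, 1 was higher and 2 were lower with TMM and with the somatic factors. Among all genes the shares were 16.2% and 16.5% with TMM and 1.39% and 49.0% with the somatic factors. *Fgf10*, a ligand of mesenchymal cells, measured 2.71, 2.68 and 2.66 CPM across the control libraries against 5.20, 7.26 and 5.08 CPM across the KO-labelled ones, which is a log2 fold change of 1.13 (edgeR adjusted p = 6.82e-04), and was called higher under the somatic factors too. *Fgf11* fell by 0.95 on the log2 scale (edgeR adjusted p = 9.05e-05), and *Fgf22*, at under 1.5 CPM in all libraries, fell by 2.20 (edgeR adjusted p = 0.00935) but did not pass without control replicate 3 (0.0762). Among 6 tested FGF receptors and co-receptors, 2 were higher and 1 lower with TMM and 0 and 2 with the somatic factors. *Fgfr3* had 6.96 ± 0.996 CPM in controls and 2.26 ± 0.157 CPM in the KO-labelled libraries (SD, n = 3 each), with a log2 fold change of -1.62 (edgeR adjusted p = 2.2e-05). *Fgfr2* (0.41) and the klotho gene *Kl* (0.83) were higher (edgeR adjusted p = 0.0099 and 0.033), with the sign of *Fgfr2* turning under the somatic factors and *Kl* not passing without control replicate 3 or without KO-labelled replicate 1 or 2 (edgeR adjusted p up to 0.118), and *Fgfr1* (-0.12) and *Fgfr4* (0.15) did not pass. Feedback genes of FGF and other receptor kinase signalling were higher in 5 of 11 and lower in 1 with TMM, and higher in 3 and lower in 5 with the somatic factors. They included *Spry4*, an inhibitor of RAS signalling, at 11.7 ± 1.07 and 21.3 ± 1.43 CPM (SD, n = 3 each, log2 fold change 0.87, edgeR adjusted p = 8.67e-05), and the ERK phosphatase gene *Dusp6* (0.62, edgeR adjusted p = 1.2e-04). *Etv5* belongs to this list too, and *Frs3* (-0.77) lost its call without control replicate 3 (edgeR adjusted p = 0.0502).

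Of 11 other niche ligands tested, 6 were higher and 1 lower with TMM, and 0 and 3 with the somatic factors. The shares of all genes were again 16.2% and 16.5% with TMM and 1.39% and 49.0% with the somatic factors. *Wnt5a* (0.55), *Igf1* (0.57) and *Bmp4* (0.45) were higher and *Pdgfa* (-0.55) was lower (edgeR adjusted p = 2.27e-04, 4.58e-04, 0.00648 and 0.00227). Of 14 other niche receptors, 10 were higher and 0 lower with TMM, and 1 and 0 with the somatic factors. The gene higher under both was *Erbb4*, a neuregulin receptor, at 37.7, 41.2 and 40.9 CPM across the control libraries against 80.8, 91.4 and 93.3 CPM across the KO-labelled ones, which is a log2 fold change of 1.15 (edgeR adjusted p = 4.15e-07). *Lifr* (0.74) and *Pdgfra* (0.52), receptors of LIF and of PDGF, were higher as well (edgeR adjusted p = 1.1e-05 and 6.38e-04). Stromal genes, which include *Pdgfra*, were higher in 4 of 8 and lower in 0, peritubular myoid genes lower in 3 of 7 and higher in 0, and endothelial genes higher in 1 of 9 and lower in 0 with TMM but lower in 7 of 9 with the somatic factors.

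**Figure D5:**
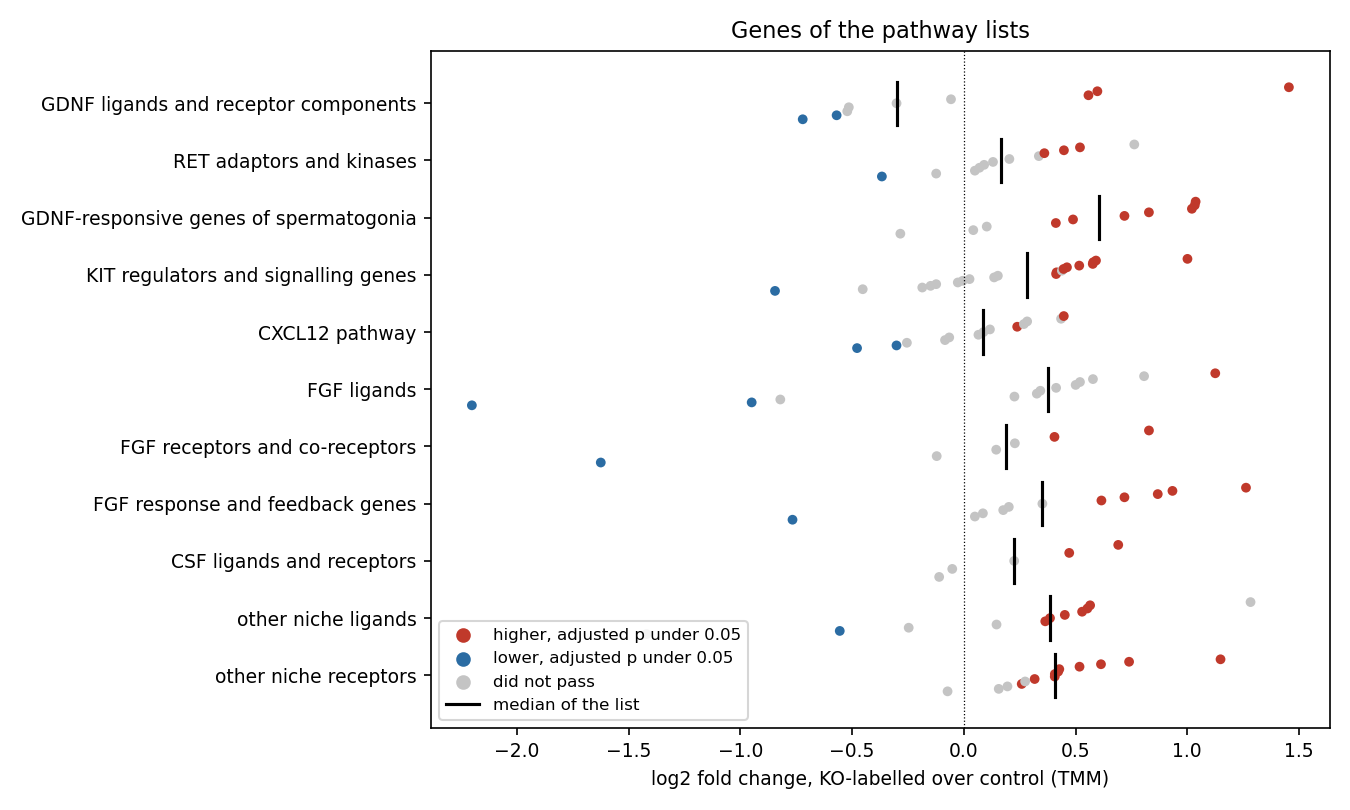
Log2 fold changes (TMM) of the tested genes of the 11 pathway lists, 1 point per gene, coloured by call, with the median of each list as a black bar. Most called genes lie to the right of 0, with Fgf22 and Fgfr3 farthest to the left; with factors from somatic markers the split turns to 5 higher and 39 lower among the 112 genes that are not of the 10.

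For 5 of the 10 genes, the protein-coding genes with the most similar pattern over the 6 libraries were found by Pearson's r of log2 CPM among 11365 genes with a mean of at least 5 CPM. *Gdnf* was followed most closely by *Ctso* (r = 0.9995) and *Acp7*, and *Kitl* by *Chmp1b* and *Dlg2*. *Acp7* had 10.6 ± 0.377 CPM in controls and 22.3 ± 1.87 CPM in the KO-labelled libraries, and *Dlg2* had 12.1 ± 1.58 and 23.9 ± 0.276 CPM (SD, n = 3 each). *Gfra1* was closest to *Map7* and *Prdx6* and *Ret* to *Acadm* and *Msantd4*. *Kit* was closest to *Pcna*, the sliding clamp of DNA replication, which went from 96.6 ± 6.82 to 55.8 ± 5.38 CPM (SD, n = 3 each), and to *Kpna2*. Pearson's r does not weigh the size of a change. *Kit* itself went only from 122 ± 2.17 to 110 ± 2.52 CPM (SD, n = 3 each) and did not pass the test. The r was 0.995 or more for all 10 of these genes, and it rests on 6 libraries in 2 groups that share their scaling.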

How the data were processed

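RNA of P12 testes was measured in 6 libraries, 3 per group, grouped by the sample titles. The authors made libraries with random and poly(T) priming, used cutadapt and HISAT2 to trim the 50-base single-end reads and place them on GRCm38, and counted them on 1 strand per gene with featureCounts 1.6.4 over GENCODE M18. The authors deposited these raw counts, from 33325483 to 44956193 per library, and 0 columns of library values were left unused. Symbols were found for 54079 of the 54232 gene identifiers (GENCODE M21).

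From these counts, edgeR 4.0.16 (R 4.3.3) computed TMM factors, a filter (filterByExpr), the quasi-likelihood test over 20327 genes and log2 CPM (prior count 1), and an adjusted p (Benjamini-Hochberg) under 0.05 was a call. SEs are the log2 fold change divided by the square root of F, and 95% intervals use a t distribution on 14.49 degrees of freedom. RPKM used the exonic lengths of the count table. Alternatives were DESeq2 1.42.0 (the study's tool), limma-voom (limma 3.58.1), RLE factors, factors from 6 lists of somatic markers, no filter, at least 10 counts in every library, a replicate block, and each library left out. The edgeR, limma-voom and DESeq2 fits with their default factors were first tried on simulated counts in which 200 genes changed, far fewer than were called here. The permutation test, the other factors and the replicate block were not tried on simulated counts. Promoter windows came from RefSeq.

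The 10 genes, the lists and the tests were chosen with earlier results of these data known. The text names the 10 genes, *Dis3l2*, *Dis3*, *Ddx4*, up to 3 genes per list and direction with the smallest adjusted p, relatives of the 10 genes in these lists, and the 2 genes closest in pattern to each of 5 of the 10. *Foxo1*, *Clu*, *Ccnd2*, *Stra8* and *Nudt6* were named after their values were seen, and *Nanos3* because it is in both lists of spermatogonial markers. Libraries with the same replicate number did not deviate together (-0.0014, -0.0126 and 0.0139, correlations across genes) and were not treated as pairs. No library was a copy of another (smallest chi-square per degree of freedom 10.0).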

Additional observations from a re-analysis of the deposited data

How the results depend on the processing

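The 6 calls among the 10 genes held in all 6 fits that left out a library and under DESeq2, limma-voom, RLE factors, no filter, at least 10 counts in every library and the replicate block. Factors from somatic markers changed most. With them 283 genes were higher and 9953 lower among all genes, 2 and 2 among the 10 genes (*Gdnf* and *Kitl*, *Kit* and *Cxcr4*), and 5 and 39 among the other pathway genes. The log2 fold changes became 0.064 for *Gfra1*, 0.088 for *Ret*, 0.19 for *Csf1*, -0.64 for *Kit* and -0.57 for *Cxcr4*, and the sign turned for *Cxcl12* (-0.050), *Fgf2* (-0.28), *Dis3l2* (-0.28), *Bmp4* (-0.060), *Csf1r* (-0.036), *Fgfr2* (-0.092), *Gnai2* (-0.27), *Shc1* (-0.14) and *Src* (-0.037). These factors did not bring every somatic list to 0, since the median log2 fold change was 0.19 for Sertoli, -0.75 for peritubular myoid and -0.64 for endothelial markers. The cause of the difference between the markers of the groups was not tested.

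When 1 library was left out, the log2 fold change ranged from 1.41 to 1.54 for *Gdnf*, from 0.49 to 0.67 for *Gfra1*, from 0.55 to 0.70 for *Ret*, from 0.87 to 1.08 for *Kitl*, from -0.16 to -0.09 for *Kit*, from 0.41 to 0.53 for *Cxcl12*, from -0.18 to 0.047 for *Cxcr4*, from 0.15 to 0.32 for *Fgf2*, from 0.44 to 0.76 for *Fgf9* and from 0.60 to 0.78 for *Csf1*. The extremes of *Cxcr4* (0.047) and *Fgf2* (0.32, edgeR adjusted p = 0.0432) came without KO-labelled replicate 2. Calls over all genes ranged from 2385 to 3331 higher and from 2563 to 3338 lower. Without the filter on low counts the median log2 fold change of all genes was -0.33, over 42383 genes.

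The replicate block, for which the labels give no shared animal or batch, left the 10 genes at 6 higher and 0 lower and the log2 fold change of *Gdnf* at 1.45, and gave 3271 and 3290 calls over all genes. The ratios changed by less than the spread between replicates with 0.5 counts added. *Fgf9* had the lowest depth, at 66 to 115 counts per library, and the part of depth and of the spread between libraries in its wide interval was not tested.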
